A study of Mus musculus with 14 samples.

Results

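Cnot7 was depleted in 4T1 cells, a metastatic mammary tumor line from the BALB/c mouse, with a pair of short hairpin RNAs, sh74 and sh75, and the 5 samples that carried either hairpin were taken as 1 knockdown group against 3 samples of a scrambled hairpin (shScramble). The genes described are those at which all 5 knockdown samples lay on the same side of all 3 shScramble samples, among probe sets paired with exactly 1 gene symbol. Of 21789 such probe sets, 453 lay higher in the knockdown samples and 403 lay lower, and these 856 probe sets (3.93%) are called non-overlapping below. Random order alone would separate 5 samples from 3, in either direction, with a probability of 0.0357, which is to be read beside this 3.93%.

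The 14 samples of the series were read on arrays that measure each gene with 1 or more probe sets, and the values are RMA levels on the log2 scale. There were 2 samples of sh74, 3 of sh75, 3 of shScramble, 3 of CNOT7 over-expression and 3 of vector control. All were stably transduced 4T1 cells. Hairpin cells were selected with puromycin, and over-expressing cells carried a FLAG-tagged human CNOT7 construct and were selected, like their vector controls, with blasticidin. The labels do not say whether replicates were separate cultures, so each p-value given here reflects the scatter of these arrays, which may be technical. In bulk samples of this kind, fewer cells of a type and less RNA per cell cannot be told apart.

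CNOT7 is one of the deadenylase subunits of CCR4-NOT, the complex that shortens the poly(A) tails of cytoplasmic mRNAs and so sets how long many of them last. Within the complex, CNOT1 is the scaffold, a CNOT6 or CNOT6L enzyme works beside CNOT7 or its close paralog CNOT8, and RNA-binding proteins and the TOB and BTG adaptors bring it to chosen transcripts. Loss of a deadenylase can therefore leave target mRNAs more abundant, while effects of those targets reach further genes.

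A hairpin acts through its guide strand, which pairs with the target mRNA, and bases 2 to 8 of the guide form the seed that can also pair with other transcripts. The sequence that the study's oligonucleotide list gives for each hairpin, read here as the guide strand, is shown 5′ to 3′ with the seed in capitals. The strand was not checked against the Cnot7 transcript. Both are shown because a pooled comparison rests on the guides being unrelated.
sh74: tAAGTACTgcagaatagaagg
sh75: aACAAGTCtacattacaccgc
Both guides are 21 bases long and target Cnot7 on chromosome 8. They have the same base at 2 of the 21 positions, counted from the 5′ end, and different seeds. Of 1679 mature mouse miRNAs in the RefSeq table, 0 carry either seed. G and C make up 38.1% of the sh74 guide and 42.9% of the sh75 guide.

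Cnot7 itself was the lower gene with the widest distance between the groups. Its single probe set read 8.71 and 9.33 with sh74 and 7.52, 8.51 and 8.07 with sh75, against 10.44, 10.33 and 10.20 in shScramble cells. All 5 knockdown samples were thus below every shScramble sample, and also below all 6 over-expression and vector samples. The knockdown mean was 8.43 ± 0.68 (SD, n = 5) and the shScramble mean 10.32 ± 0.12 (SD, n = 3), so that 26.9% of the shScramble level was left, 40.4% with sh74 and 20.4% with sh75. The pooled change was −1.90 (SE 0.32), with an exact two-sided permutation p of 0.0357, the smallest that 5 against 3 samples can give, and a limma adjusted p of 0.279. With the hairpins as separate groups of equal weight the change was −1.80 and limma's adjusted p 0.04998. Titles give some samples a shared number, and within number 4 (sh75 against shScramble, 1 sample each) the change was −2.81 and within number 5 (2 samples against 1) it was −1.91. The over-expression construct is human, and the mouse probe set read 10.64, 10.02 and 10.08 in over-expression cells and 10.07, 10.52 and 10.15 in vector cells.

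No probe set passed limma's test in the pooled comparison. Of 21789 tested, 0 had an adjusted p under 0.05 (0%) and 1513 had an unadjusted p under 0.05 (6.94%). The methods' t-test gave 182 of 21789 at an unadjusted p under 0.01 and 0 after adjustment. These 182 are a smaller share than the 0.01 that this threshold gives without any difference. Equal weighting of the hairpins gave 4 calls (0.0184%), all with a lower mean in the knockdown cells: Cnot7, the kinase gene Hipk3, the HSP90 co-chaperone gene Chordc1 and Dennd10. Of these, Hipk3, Chordc1 and Dennd10 were also called by limma between the hairpins. Dennd10 averaged 9.39 with sh74 and 8.49 with sh75, against 9.55 in shScramble cells (sh74 minus sh75 0.91, limma adjusted p = 0.0052). Since no probe set passed in the pooled comparison, the words higher and lower below state where samples lay, not that a gene passed a test. The non-overlapping genes are given as a description, since the same samples chose them.

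Most of the non-overlapping differences were small. The 453 higher probe sets (2.08% of those tested) had a median change of 0.25, and 41 of them differed by at least 1.5-fold and 10 by at least 2-fold. The 403 lower probe sets (1.85%) had a median change of −0.21, with 35 at 1.5-fold or more and 14 at 2-fold or more. The median distance between the nearest samples of the groups was 0.042 for the higher and 0.030 for the lower. A mean level under 6 was found at 152 of the higher and 170 of the lower probe sets. At any level, 57 of the 453 and 63 of the 403 were predicted genes, small RNAs or receptor and pseudogene entries. At the edge of the rule, Foxk1 was just inside, with 8.86, 9.06, 9.10, 9.14 and 9.06 in knockdown cells against 8.83, 8.86 and 8.77 in shScramble cells. Ndfip2 was just outside, with 8.98, 9.0, 9.02, 9.16 and 9.22 against 8.76, 8.98 and 8.98.

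The counts depended most on 1 array. Without shScramble replicate 3, 1446 probe sets lay higher and 1347 lower, and leaving out any other 1 of the 8 samples gave 614 to 963 higher and 532 to 922 lower. A smaller group overlaps less often, so the like settings are those without another shScramble sample. They gave 901 higher and 760 lower without replicate 1, and 963 and 836 without replicate 2. Of the 8 samples, shScramble replicate 3 moved the counts most. When the array medians were set equal the counts were 321 higher and 596 lower.

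Among the lower genes, the widest distance after Cnot7 was at Rgs16, an inhibitor of G-protein signaling. Its levels were 8.24 and 8.46 with sh74 and 6.90, 7.92 and 8.69 with sh75, against 9.98, 10.24 and 9.20 in shScramble cells, a change of −1.76 (SE 0.40). It was also below all 6 other samples, which read 8.84 to 10.04. Within number 4 its change was −3.33 and within number 5 it was −0.89.

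**Figure D1:**
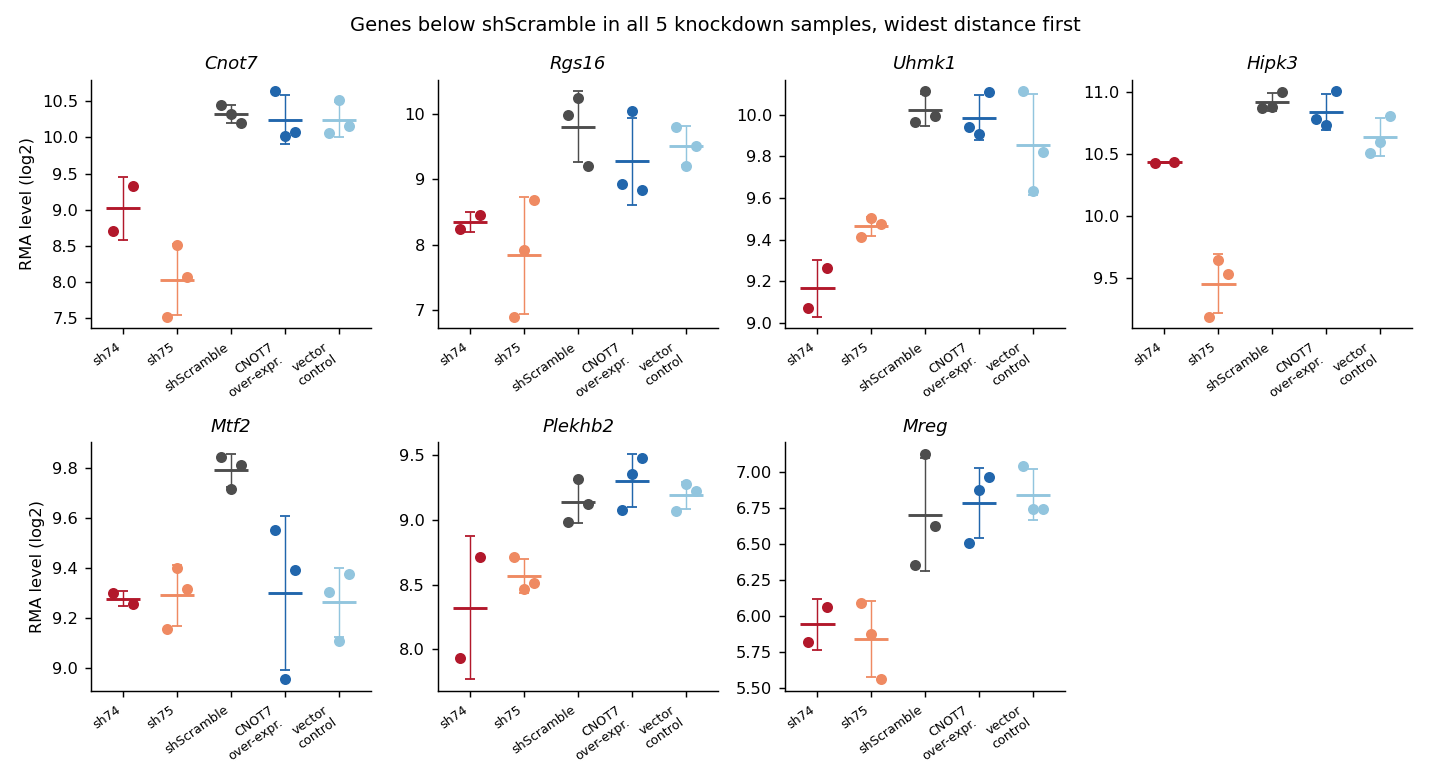
RMA level (log2) of 7 of the lower genes with the widest distance between knockdown and shScramble samples, for each of the 14 samples; points are samples, horizontal lines group means and bars SD. Cnot7, Rgs16, Uhmk1, Hipk3, Plekhb2 and Mreg lie below all 9 samples without a Cnot7 hairpin, whereas Mtf2 is set apart by its high shScramble samples (9.72 to 9.84).

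Uhmk1, a serine/threonine kinase with an RNA-recognition-like domain, read 9.07 and 9.26 with sh74 and 9.41, 9.50 and 9.47 with sh75, against 9.97, 10.11 and 9.99 in shScramble cells (change −0.68, SE 0.12). The 6 other samples lay at 9.63 to 10.11, so the knockdown samples were the lowest of all 14. Hipk3, a homeodomain-interacting kinase, read 10.43 and 10.44 with sh74 and 9.19, 9.64 and 9.53 with sh75, against 10.87, 10.88 and 11.001 in shScramble cells. Its size depended on the hairpin: sh74 exceeded sh75 by 0.98 (limma adjusted p = 0.0215). Morf4l2, a subunit of histone acetyltransferase complexes, read 9.70, 9.95, 9.58, 9.62 and 9.89 in knockdown cells against 10.22, 10.12 and 10.24 in shScramble cells, and 10.10 to 10.20 in the other 6 samples. Taf12, a TFIID subunit, read 7.58, 7.81, 7.78, 7.71 and 7.88 against 8.32, 8.27 and 7.99. Snupn, the snurportin that carries spliceosomal snRNPs into the nucleus, read 6.02, 6.11, 6.31, 6.41 and 6.13 against 6.86, 6.74 and 6.56. All 3 of these genes were lower in the knockdown cells than in every other sample.

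Mreg, melanoregulin, which acts in organelle transport, read 5.82 and 6.07 with sh74 and 6.09, 5.87 and 5.56 with sh75, against 6.36, 7.13 and 6.63 in shScramble cells (change −0.82, SE 0.18). Plekhb2, a PH-domain protein of recycling endosomes, read 7.93, 8.71, 8.71, 8.46 and 8.51 against 8.98, 9.31 and 9.12. Neither gene overlapped with the other 6 samples. Their changes were −1.04 and −0.60 within number 4 and −0.91 and −0.63 within number 5. The rule takes in these same samples, so it fixes the signs. Ccp110, a centriole-capping protein, had a change of −0.39 (SE 0.08), and Rnf6, a ubiquitin ligase, of −0.69 (SE 0.14).

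The higher genes had 2 of the 3 widest distances. Itga1, the integrin subunit that binds collagen, had the largest change of any gene named, 2.56 (SE 0.51). Its levels were 10.19 and 9.43 with sh74 and 9.01, 9.25 and 8.23 with sh75, against 7.55, 6.82 and 5.61 in shScramble cells, and 6.47 to 8.0 in the 6 other samples. The knockdown mean was 9.22 ± 0.71 (SD, n = 5) and the shScramble mean 6.66 ± 0.98 (SD, n = 3), and limma's adjusted p was 0.359. Within number 4 the change was 2.19 and within number 5 it was 3.13. Itga1 lies on chromosome 13, whose median was 0.25 above its mean over the samples in sh74 replicate 1, and with each chromosome's median taken out of every sample the nearest samples of the groups were 0.63 apart.

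Scara5, a scavenger receptor that takes up ferritin, read 8.75 and 7.45 with sh74 and 7.82, 7.60 and 7.12 with sh75, against 6.31, 6.19 and 6.53 in shScramble cells. No other sample exceeded 6.62, so this gene stood apart in the knockdown cells alone (change 1.40, SE 0.28). Within number 4 the change was 1.62 and within number 5 it was 0.83. Adamts9, a secreted metalloprotease that cleaves matrix proteoglycans, has 6 probe sets, and all 6 were non-overlapping and higher. Its brightest probe set read 8.29, 7.30, 7.44, 7.70 and 7.39 in knockdown cells against 6.57, 6.55 and 6.82, but 7.78 in 1 over-expression sample. Glipr1, a secreted protein gene known as a p53 target, read 6.48, 5.84, 5.54, 6.27 and 6.0 against 4.91, 4.73 and 4.78, and 7.06 in the same over-expression sample.

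**Figure D2:**
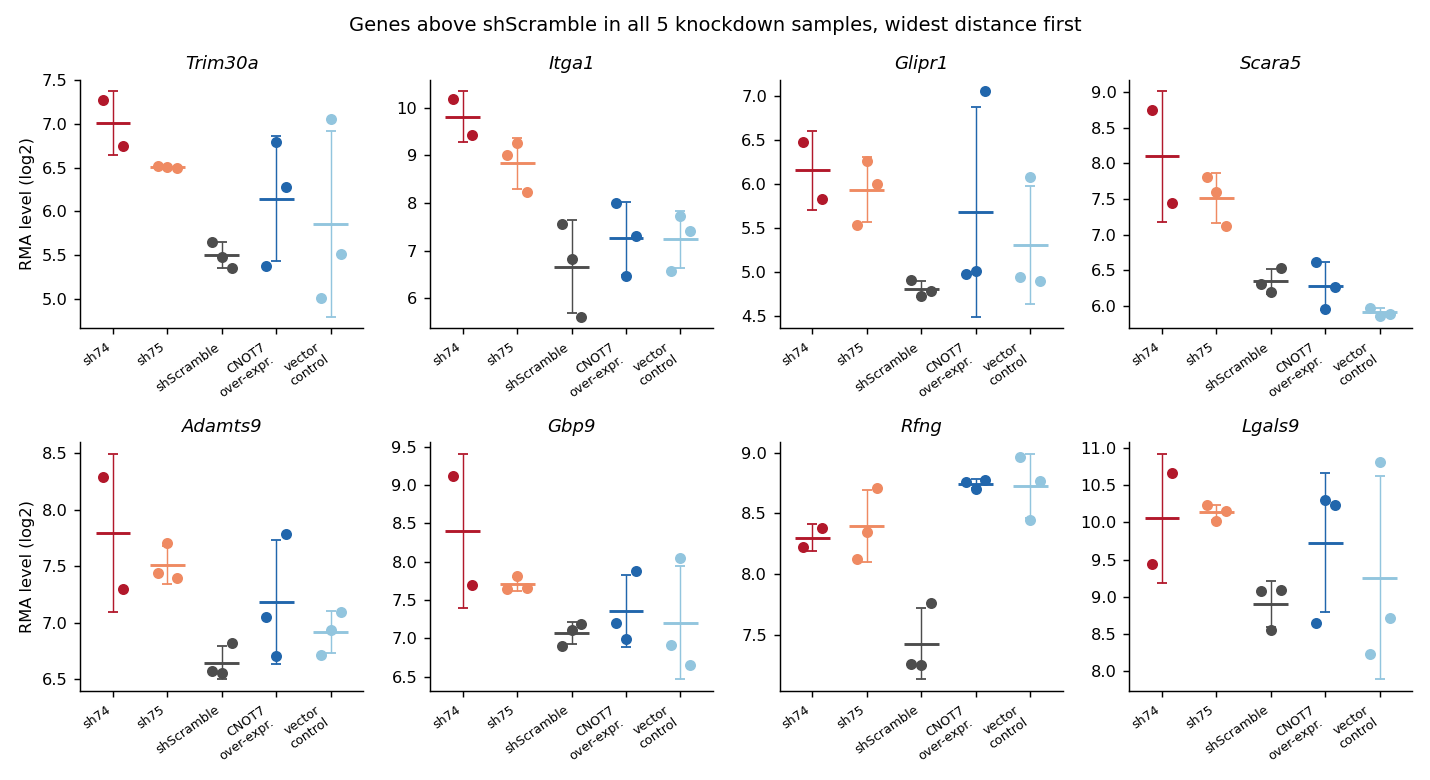
RMA level (log2) of the 8 higher genes with the widest distance between knockdown and shScramble samples, for each of the 14 samples; points are samples, horizontal lines group means and bars SD. Itga1 and Scara5 lie above all 9 samples without a Cnot7 hairpin, while at Trim30a, Glipr1, Gbp9 and Lgals9 a vector control sample reaches the knockdown range, and at Rfng the shScramble samples (7.25 to 7.76) lie below all others.

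For some genes it was shScramble that stood apart. Rfng, a glycosyltransferase that modifies Notch receptors, read 8.22, 8.38, 8.12, 8.35 and 8.71 in knockdown cells against 7.26, 7.25 and 7.76 in shScramble cells. The over-expression samples read 8.76, 8.70 and 8.78 and the vector samples 8.97, 8.44 and 8.77, so the 3 shScramble samples were the lowest of 14. Map2k4, a kinase upstream of JNK and p38, had the smallest p of the higher genes (change 0.52, SE 0.07, limma adjusted p = 0.269) and read 9.97, 9.77, 9.91, 9.78 and 9.94 against 9.32, 9.27 and 9.46. Its other 6 samples read 9.55 to 9.84, again above every shScramble sample. The same held for Rexo1, an RNA exonuclease homolog (change 0.45, SE 0.08), for Slc25a10, the mitochondrial dicarboxylate carrier (change 0.53, SE 0.10), and, on the lower side, for Mtf2, an accessory factor of the Polycomb repressive complex PRC2, with 9.30, 9.26, 9.16, 9.40 and 9.32 in knockdown cells against 9.84, 9.72 and 9.81.

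Over all 856 non-overlapping probe sets, the knockdown samples lay beyond all 9 other samples at 119, or 13.9%, of which 61 were higher (0.28% of those tested) and 58 lower (0.266%). The shScramble samples lay beyond all 11 others at 65, or 7.59%. At the other 672 (78.5%), neither group lay beyond all other samples. Besides those already named, genes that stood apart in the knockdown samples included Brd9, a bromodomain subunit of a SWI/SNF chromatin complex, with 8.31, 8.11, 8.16, 8.08 and 8.17 against 7.59, 7.70 and 7.89 in shScramble cells. Ado, which oxidizes cysteamine and N-terminal cysteines, read 8.80, 8.91, 9.11, 8.95 and 8.80 against 8.40, 8.59 and 8.43. Their changes were 0.46 and 0.52 within number 4 and 0.23 and 0.44 within number 5, with signs that the rule fixes.

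In the signaling lists below, the counts are to be read beside 2.09% higher and 1.86% lower of all 19938 genes. Pik3r1, the regulatory subunit of PI3K, read 9.66 and 8.68 with sh74 and 9.19, 9.17 and 8.79 with sh75, against 8.26, 7.87 and 8.59 in shScramble cells (change 0.86, SE 0.21). Inpp4b, a phosphatase that degrades a PI3K product, was lower, at 7.32, 7.49, 6.36, 6.68 and 6.78 against 8.29, 7.98 and 7.66. These were the 2 non-overlapping genes of 28 measured in the PI3K, AKT and mTOR pathway. Sav1, the scaffold of the Hippo kinases, read 10.52, 10.21, 10.31, 10.51 and 10.45 in knockdown cells against 9.67, 9.95 and 10.12 and was the only non-overlapping gene of 21 in the Hippo pathway. Of 30 Wnt pathway genes, 3 were higher, namely the receptor gene Fzd6, Dvl3, which relays its signal, and Tcf7l1, a repressor at Wnt targets, and 1 was lower, Dkk3.

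The machinery around Cnot7 held few non-overlapping genes. None of the 10 other CCR4-NOT subunits measured was non-overlapping, beside 2.09% higher and 1.86% lower of all 19938 genes. Limma called 0 of them, but 3 of the 10 had an unadjusted p under 0.05, beside 1402 of all 19938 genes. Cnot9, which binds miRNA silencing factors, read 10.30 and 10.65 with sh74 and 9.91, 9.93 and 9.85 with sh75, against 10.58, 10.51 and 10.58 in shScramble cells, so that the groups overlapped through sh74. The scatter among the subunits was between −0.43 and 0.19. None of the 5 TOB and BTG adaptors was non-overlapping. Of 22 RNA-binding proteins that recruit deadenylases, 1 was, Zfp36l2, which binds AU-rich elements. It read 11.47, 11.62, 11.32, 11.51 and 11.12 in knockdown cells against 10.98, 11.01 and 10.97, above all 9 other samples. Of 31 other tail and decay factors, Xrn2, the nuclear exonuclease, was higher (change 0.09) and Dcp1a, a decapping co-factor, lower (change −0.18). Of 33 AU-rich or immediate early transcripts, Egr2 alone was non-overlapping and higher (change 0.60, SE 0.26), and the list's median was −0.05.

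Interferon-stimulated genes, which cells use against viruses, held 6 higher members of 37 measured and 0 lower ones, beside 2.09% higher and 1.86% lower of all genes. These were Trim30a, Parp9, Parp14, Adar, Xaf1 and Oas1a, and the list's median change was 0.20 beside 0.00 over all genes. Limma called none, with 6 of the 37 at an unadjusted p under 0.05, beside 1402 of all 19938 genes. Trim30a, a TRIM protein that restrains inflammatory signaling, had the widest distance of any higher gene, reading 7.27 and 6.75 with sh74 and 6.52, 6.50 and 6.49 with sh75, against 5.65, 5.48 and 5.35 in shScramble cells. Yet 1 vector sample read 7.05 and 1 over-expression sample 6.79, within the knockdown range. Parp9, which pairs with DTX3L in ADP-ribosylation, read 7.84, 8.20, 8.26, 8.03 and 7.87 against 7.22, 7.52 and 7.57, with 8.61 in the same vector sample. Adar, the double-stranded RNA editing enzyme, read 9.11, 8.68, 8.62, 8.79 and 8.84 against 8.52, 8.47 and 8.56.

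As a mean over the 37 genes, relative to all 14 samples, the interferon list lay at 0.14 and 0.24 with sh74 and at 0.10, −0.10 and −0.01 with sh75, against −0.23, 0.01 and −0.17 in shScramble cells. The groups overlapped on this mean, and vector control replicate 2 lay far above all, at 0.90, its fellow vector samples being at −0.30 and −0.37. Within number 4 the list's median change was 0.03 and within number 5 it was 0.11. The median change in over-expression cells was −0.14 against vector cells, and 0.20 without vector control replicate 2. Gbp9, a guanylate-binding protein of an interferon-induced family, and Lgals9, galectin-9, lie outside the list and were higher too, with changes of 0.92 (SE 0.38) and 1.2 (SE 0.54), and both read over 8 in vector control replicate 2 (8.05 and 10.81). Trim30a, Oas1a and Gbp9 have close paralogs whose transcripts these probe sets could share, which was not tested.

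Interferon-stimulated response elements drive such genes, and a core of that element, GAAANNGAAA on either strand, was looked for in RefSeq promoter windows (GRCm38.p6, 250 bases before to 50 after the start). It was present for 1079 of 27025 genes (3.99%) and for 14 of the 27 list genes that have a window (51.9%). Among the non-overlapping members with a window it was present for 2 of 4, and among the overlapping members for 12 of 23 (52.2%). For each of the 2 members 1 match is shown in capitals, on the gene's strand, as an example of the core found for 14 of the 27 list genes. Each has a further match that is not marked. That of Oas1a overlaps the one shown, and that of Trim30a lies in another window.
Oas1a, chr5:120907522-120907547, minus strand: gggaaatgGAAACTGAAAatctactt
Trim30a, chr7:104465212-104465237, minus strand: ttctttagTTTCTTTTTCtcagttcc
A match describes these letters and is no evidence that a factor bound there.

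**Figure D3:**
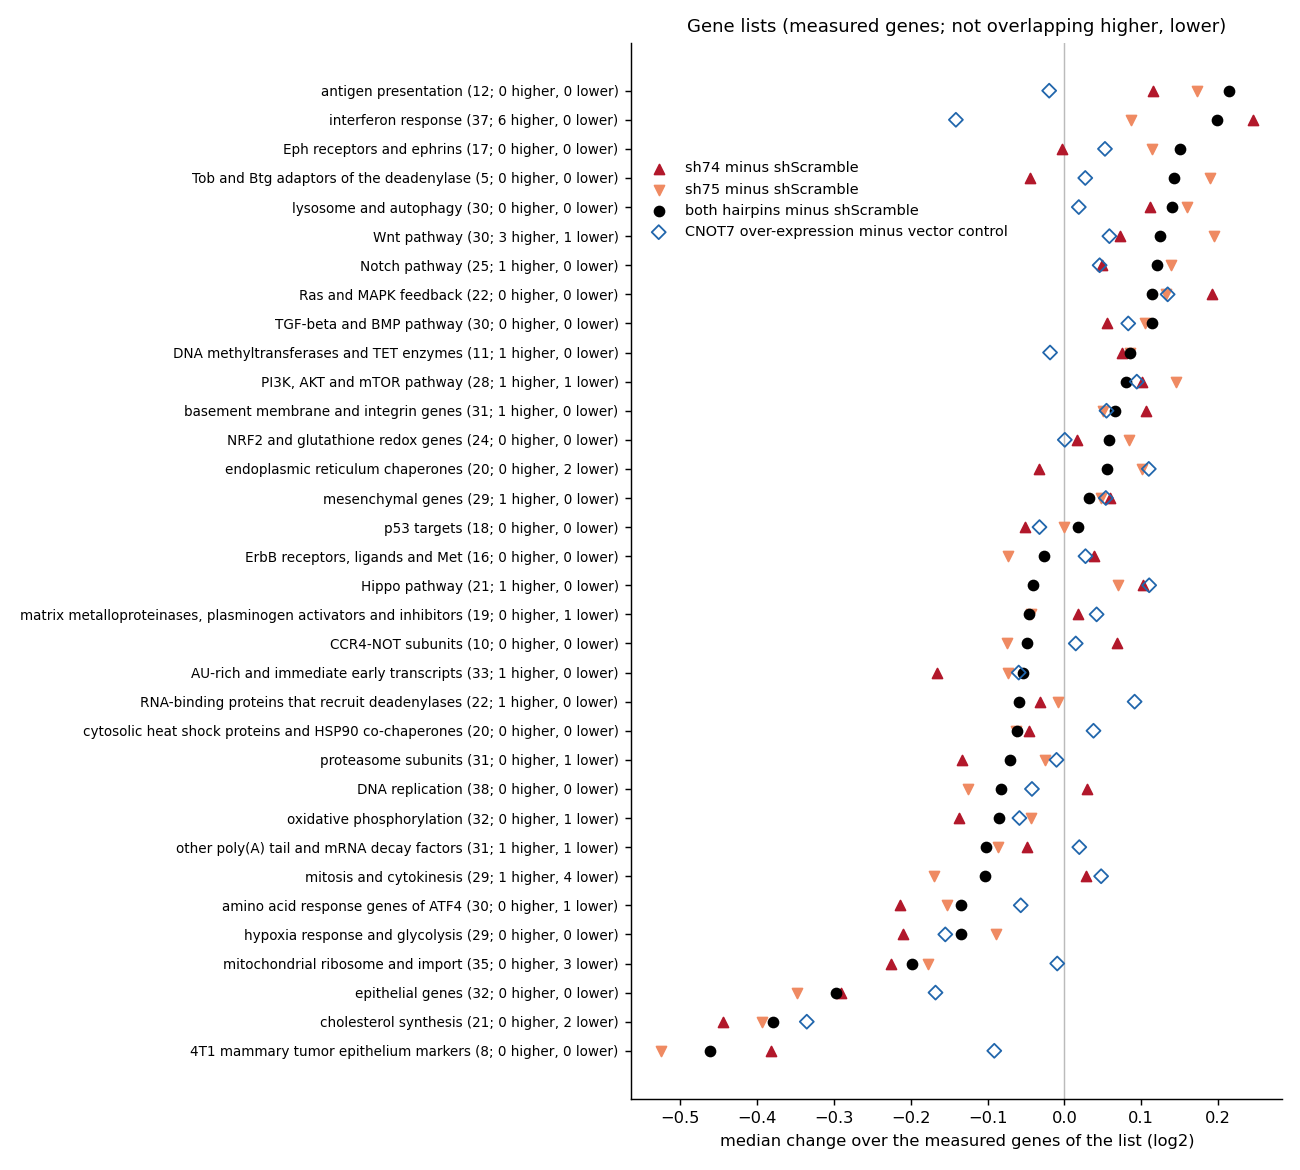
Median change (log2) over the measured genes of each list, for both hairpins together (circles), sh74 and sh75 separately against shScramble (triangles), and CNOT7 over-expression against vector control (diamonds). Interferon genes lie at 0.20 with both hairpins and −0.14 with over-expression, while cholesterol synthesis lies at −0.38 and −0.34; without vector control replicate 2 the interferon value for over-expression is 0.20, and without over-expression replicate 3 that for cholesterol is −0.10.

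Of 21 cholesterol synthesis genes measured, 18 had a change below 0 (9676 of all 19938 genes did), and the median was −0.38 (sh74 −0.44, sh75 −0.39). Non-overlapping and lower were 2, beside 1.86% of all genes: Fdps, the farnesyl diphosphate synthase, and Srebf2, which encodes the transcription factor of the pathway. Fdps read 8.92 and 9.58 with sh74 and 9.56, 9.37 and 8.98 with sh75, against 9.70, 9.64 and 9.90 in shScramble cells, and Srebf2 read 9.56, 9.98, 10.16, 10.05 and 9.66 against 10.35, 10.17 and 10.17. The list's mean, relative to all 14 samples, was −0.42 and 0.36 with sh74 and 0.39, −0.07 and −0.44 with sh75, against 0.34, 0.30 and 0.34 in shScramble cells, so the groups overlapped. Within number 4 the median change was 0.06 and within number 5 it was −0.53, so the lower level was not seen in both pairs of numbers. In over-expression cells the list's mean was −0.06, −0.11 and −0.68, against 0.09, −0.24 and 0.19 in vector cells. The median change there was −0.34, and −0.10 without over-expression replicate 3. Fdps and Srebf2 both overlapped once each chromosome's median was taken out of every sample.

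Mitochondrial ribosome and import genes showed 32 of 35 changes below 0, beside 9676 of all 19938 genes, with a median of −0.20 (sh74 −0.23, sh75 −0.18) and −0.01 in over-expression cells. Mrpl15, Mrpl18 and Mrps12, all ribosomal proteins of that organelle, were non-overlapping and lower, beside 1.86% of all genes. Mrpl15 read 7.57, 8.14, 8.07, 7.86 and 7.93 in knockdown cells against 8.32, 8.21 and 8.38, below all 9 other samples. The list's mean, relative to all 14 samples, was −0.36 and 0.03 with sh74 and −0.08, −0.28 and 0.02 with sh75, against 0.16, 0.03 and −0.02 in shScramble cells, so the groups overlapped. The list's median change was −0.11 within number 4 and −0.09 within number 5. Cyc1, cytochrome c1 of respiratory complex III, was non-overlapping too (change −0.42, SE 0.14), as 1 of 32 oxidative phosphorylation genes, but overlapped with chromosome medians taken out.

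Mitosis and cytokinesis genes had 4 lower members of 29, beside 1.86% of all genes. They were Plk1 and Aurka, kinases of mitotic entry and spindle assembly, Kif2c, a microtubule depolymerase, and Anln, the actin-binding anillin of the cleavage furrow. Plk1 read 11.09 and 11.26 with sh74 and 11.27, 10.99 and 11.27 with sh75, against 11.50, 11.32 and 11.35 in shScramble cells. Aurka read 9.62, 9.76, 9.91, 9.51 and 9.82 against 9.94, 10.17 and 10.01. Cenpa, the centromeric histone, was the 1 higher member (change 0.11). The list's median was −0.10, but 0.03 with sh74 and −0.17 with sh75. Relative to all 14 samples, the list's mean was 0.04 and 0.03 with sh74 and −0.03, −0.25 and −0.06 with sh75. In shScramble cells it was −0.02, 0.04 and 0.10, so the groups overlapped. At Plk1, Aurka and Anln neither group lay beyond all other samples. Endoplasmic reticulum chaperones held Ero1a and Creld2 as lower members of 20, with changes of −0.58 (SE 0.23) and −0.32 (SE 0.12), beside a median of 0.06.

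Further lists gave 1 member or none, to be read beside 2.09% higher and 1.86% lower of all 19938 genes. Adam8, a membrane metalloprotease, was the lower one of 19 matrix protease genes, at 6.95 and 8.14 with sh74 and 7.61, 7.51 and 7.18 with sh75, against 8.97, 8.50 and 8.29 in shScramble cells. The over-expression and vector samples ran from 7.06 to 9.24, across both ranges. Tet1, which oxidizes methylated cytosine, was the higher one of 11 DNA methylation genes (change 0.70), Itga1 of 31 basement membrane and integrin genes and Rfng of 25 Notch pathway genes. Vldlr was the lower one of 30 amino acid response genes and Psmd13 of 31 proteasome genes. None was found among 38 DNA replication, 30 TGF-beta and BMP, 18 p53 target, 20 heat shock, 29 hypoxia and glycolysis, 22 Ras feedback, 16 ErbB and Met, 17 Eph and ephrin, or 24 NRF2 and glutathione genes.

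The epithelial state of the cells varied more within the groups than between them. No epithelial gene of 32 was non-overlapping, although 27 had a change below 0 (9676 of all 19938 genes did) and the median was −0.30. Of 29 mesenchymal genes 1 was non-overlapping, Fap, at a background level under 4, beside 2.09% higher and 1.86% lower of all genes. Epcam, the epithelial adhesion molecule, read 5.98 and 10.01 with sh74 and 9.69, 7.85 and 7.89 with sh75, against 9.64, 9.65 and 8.41 in shScramble cells. Lamb3, a laminin chain of the basement membrane, read 5.92, 8.63, 8.27, 6.93 and 7.11 in knockdown cells against 9.40, 9.32 and 8.23, and 8.81, 7.81 and 7.18 in over-expression cells against 9.30, 9.17 and 9.23 in vector cells. Sparc, a matrix protein of mesenchymal cells, was between 8.53 and 11.54 in knockdown cells against 9.82, 5.81 and 11.12.

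A score, the mean of the mesenchymal genes minus that of the epithelial genes after centering each gene, was 1.09 and −0.99 with sh74 and −0.45, 0.80 and 0.72 with sh75, against −0.57, −0.92 and 0.59 in shScramble cells. Samples of high score, sh74 replicate 1, sh75 replicates 2 and 3 and shScramble replicate 3, thus fell on both sides of the comparison. With this score as a covariate limma called 0 probe sets and Cnot7 had a change of −1.80 (adjusted p = 0.26). Within number 4 the epithelial list's median change was 0.01 and within number 5 it was −0.07.

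**Figure D4:**
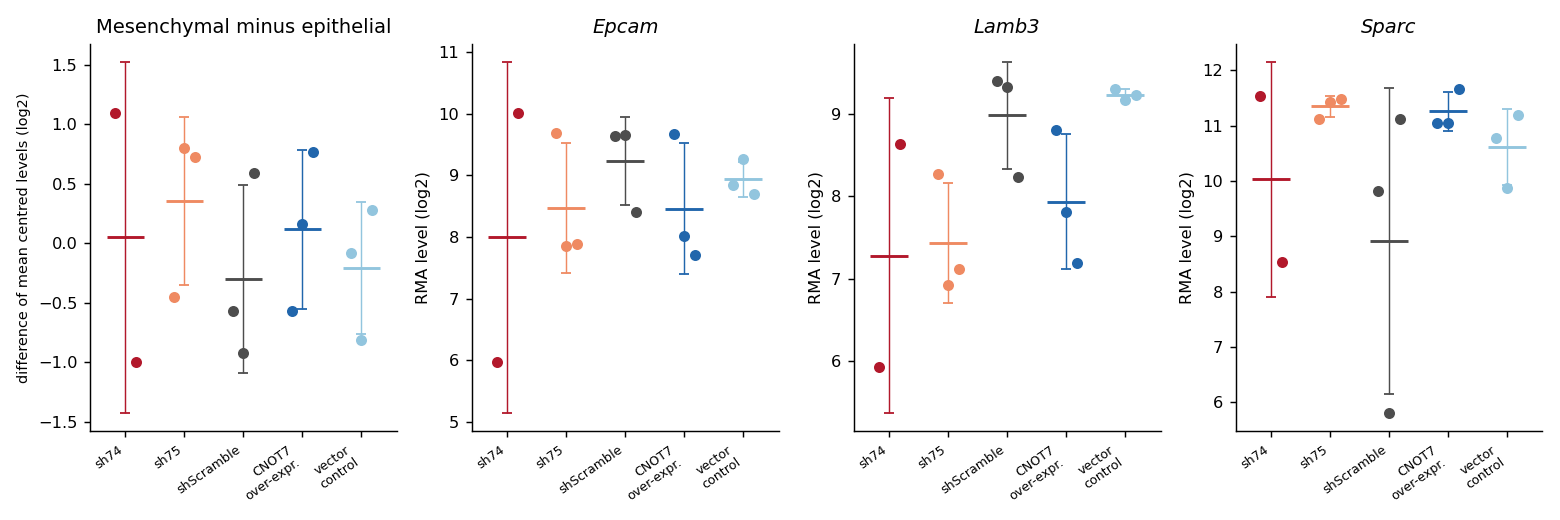
Mesenchymal minus epithelial score (difference of mean centered log2 levels) and RMA levels (log2) of Epcam, Lamb3 and Sparc in each of the 14 samples; points are samples, horizontal lines group means and bars SD. The sh74 samples lie at opposite ends (1.09 and −0.99 for the score), and the knockdown and shScramble samples overlap in every panel.

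Of the marker lists, that of the mammary tumor epithelium had the highest mean levels. All 8 epithelial tumor markers were above the dim limit of 4.89, the 90th percentile of olfactory receptor probe sets, and their mean level ran from 8.58 to 10.70 in knockdown cells, 8.95 to 10.78 in shScramble cells and 8.92 to 10.50 in the other 6. The mean of 7 immune markers was 5.59 to 5.68 in knockdown cells against 5.69 to 5.82, without overlap, with 4 of the 7 above the dim limit, and its part in other results was not tested. The means of endothelial, fibroblast and adipocyte markers lay between 4.75 and 5.85 in all 8 samples, with 3 of 6, 6 of 8 and 4 of 5 above the dim limit. Single markers were brighter. Pdgfra, a fibroblast marker, read 7.44 to 9.25 in knockdown cells against 7.11 to 8.06, and Cd68, an immune marker, 7.27 to 9.01 against 7.54 to 8.87. Among the endothelial, fibroblast and adipocyte markers Adipoq alone was non-overlapping, at 4.96 to 5.02 against 4.93 to 4.95. Array medians lay between 6.31 and 6.38.

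Over-expression of CNOT7 gave samples that the choice of these genes had not used. Between over-expression and vector cells, 936 probe sets lay higher without overlap (4.3% of those tested) and 746 lower (3.42%), and limma called 0, with 562 at an unadjusted p under 0.05 (2.58%). Of the 453 higher in knockdown cells, 29 lay higher (6.4%) and 11 lower (2.43%) in over-expression cells. Of the 403 lower in knockdown cells, 16 lay higher (3.97%) and 14 lower (3.47%). The differences of these shares from those of all tested probe sets were not tested. The median over-expression change was 0.03 for the higher and −0.01 for the lower, beside 0.01 for all.

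The genes named next were chosen because they lay without overlap in both comparisons, for each combination of directions. Their directions are therefore fixed by that choice. They are examples of the shares given above and no evidence of opposite responses, and those with opposite directions come first. Smim26, a small mitochondrial membrane protein gene, read 5.77, 5.89, 5.96, 5.79 and 5.91 in knockdown cells against 6.32, 6.36 and 6.17 in shScramble cells, and 6.55, 6.43 and 6.48 in over-expression cells against 6.05, 6.11 and 6.32 in vector cells. Bcs1l, a chaperone of respiratory complex III assembly, read 7.57, 8.20, 8.16, 8.18 and 8.23 against 8.63, 8.48 and 8.49, and 8.84, 8.81 and 8.77 against 8.55, 8.73 and 8.61. Anln and Psip1, a chromatin tether that binds methylated histone H3, had the same pattern, with knockdown changes of −0.25 and −0.33 and over-expression changes of 0.16 and 0.14. The reverse was found for Mcm9, a helicase of homologous recombination, with 7.76, 8.10, 8.10, 7.75 and 7.67 against 7.34, 7.64 and 7.49, and 7.09, 7.23 and 7.22 against 7.31, 7.46 and 7.42. Brd9, Vps41 and Cln6 were likewise higher with knockdown and lower with over-expression. In the same direction in both were Plagl2, Plxna1, Nfic and Samd5, all higher, and Bola2, Osgepl1, Smtn and Xrcc6, all lower.

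The rule requires both hairpins to lie on the same side of the same 3 shScramble samples, so their agreement in sign is fixed and the following medians are a description. At the 453 higher probe sets the median change was 0.23 with sh74 and 0.24 with sh75, and at the 403 lower ones −0.21 and −0.20. Between sh74 and sh75, limma called 38 of 21789 probe sets (0.174%), and 1 of them, Hipk3, was non-overlapping in the pooled comparison. Chordc1 read 8.61 and 8.80 with sh74 and 10.06, 9.98 and 10.18 with sh75, against 10.35, 10.18 and 10.08 in shScramble cells, so it left the rule through a single sh75 sample. The hairpins differed there by −1.37 (limma adjusted p = 0.000356), and Chordc1 was nonetheless among the 4 calls made with equal hairpin weights. Epha1, an ephrin receptor, was 7.68 and 8.09 with sh74 and 9.80, 9.60 and 9.99 with sh75, against 8.12, 8.26 and 8.12.

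The chromosomal place of the genes was no part of their choice, and 2 chromosomes stood out. Chromosome 10 held 66 of the 453 higher probe sets (14.6%) and 4 lower ones, although it carries 4.77% of those tested. Chromosome 1 held 51 of the 403 lower probe sets (12.7%) and 12 higher ones, with 5.98% of those tested. On chromosome 10 these were 6.35% higher and 0.385% lower of 1039 tested, and on chromosome 1 they were 0.92% higher and 3.91% lower of 1304. The higher genes of chromosome 10 named above or by the same rule include Ado, Rexo1, Glipr1, Rev3l, Nfic, Mcm9, Samd5, Egr2 and Tet1, and the lower ones of chromosome 1 include Rgs16, Uhmk1, Plekhb2, Mreg, Bcs1l, Osgepl1 and Mrpl15.

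Whole chromosomes moved in single samples. Over probe sets with a mean of at least 6, the median of chromosome 10, relative to its mean over 14 samples, was 0.00 and 0.02 with sh74 and 0.04, 0.04 and 0.08 with sh75, against −0.06, 0.00 and −0.16 in shScramble cells, and between 0.00 and 0.05 in the other 6. Chromosome 1 was at −0.21 and 0.07 with sh74 and 0.02, −0.01 and −0.14 with sh75, against −0.02, 0.04 and 0.10. Low chromosome 10 values were thus those of shScramble replicate 3, and low chromosome 1 values those of sh74 replicate 1 and sh75 replicate 3. Over 20 chromosomes the smallest exact permutation p was 0.0714, for chromosome 10, and 0.848 after adjustment. The smallest p that 5 against 3 samples can give is 0.0357. A single chromosome could therefore not pass after adjustment over 20, and the adjusted value decides nothing. Within number 5, which holds shScramble replicate 3, chromosome 10 differed by 0.22, and within number 4 by 0.04. The 66 higher probe sets were found in each of 10 equal stretches of chromosome 10, with 3 to 14 in a stretch.

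**Figure D5:**
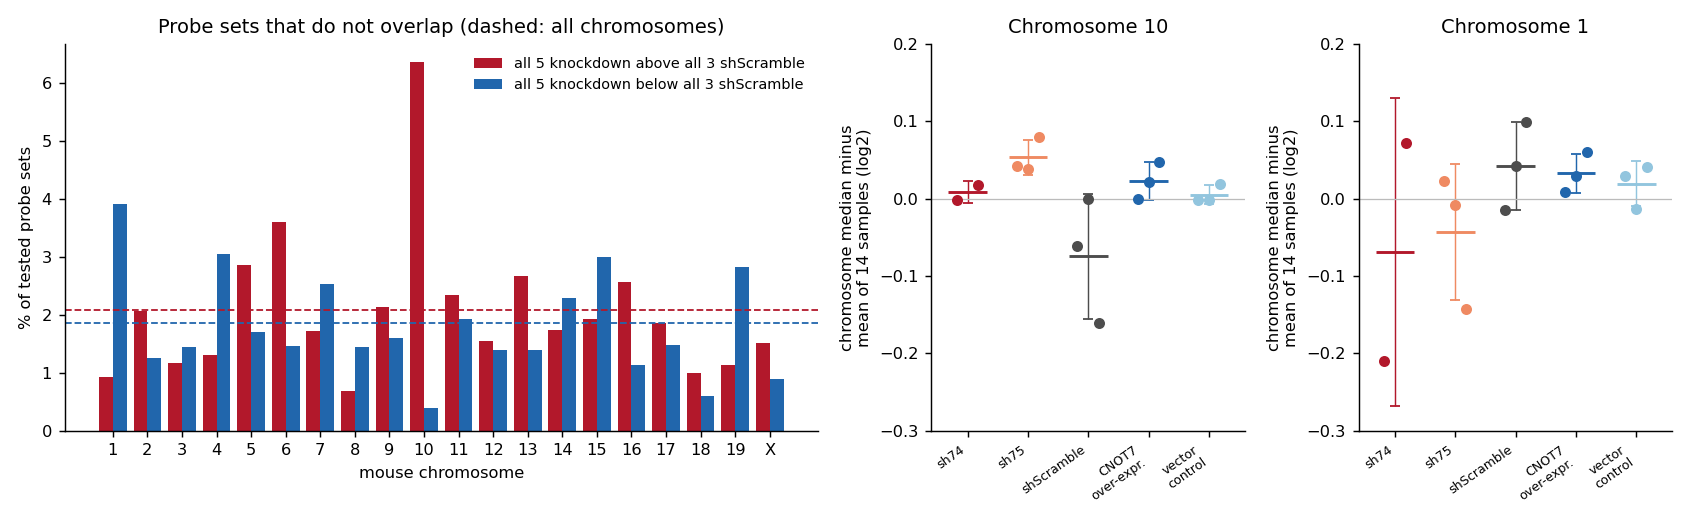
Left, share of tested probe sets (%) on each chromosome at which all 5 knockdown samples lay above (red) or below (blue) all 3 shScramble samples, with dashed lines for all chromosomes together (2.08% and 1.85%). Middle and right, median of chromosomes 10 and 1 in each sample minus its mean over 14 samples (log2), with group means and SD; shScramble replicate 3 is the lowest on chromosome 10 at −0.16.

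Other chromosomes differed between samples by as much, the median range over the 14 samples being 0.30 for the 20 chromosomes. Chromosome 13 was at 0.25 in sh74 replicate 1 and at −0.30 in 1 over-expression sample, and chromosome 8, which carries Cnot7, was at −0.13 and 0.20 with sh74 and −0.10, −0.08 and −0.07 with sh75, against 0.10, 0.07 and −0.08. Each chromosome's median was taken out of every sample, only at probe sets with a mean of at least 6. Then 478 probe sets lay higher and 458 lower, among them 352 of the 453 (77.7%) and 330 of the 403 (81.9%). Dimmer probe sets were left unchanged but stay in these and the following counts. Their outcome was fixed, as at Glipr1, Samd5 and Tet1 on chromosome 10. Chromosome 10 then held 28 higher and 25 lower, and chromosome 1 held 29 and 34. The nearest samples at Rgs16, Uhmk1, Plekhb2 and Mreg, all on chromosome 1, were then 0.27, 0.28, 0.31 and 0.31 apart, and 7 of the 69 named non-overlapping genes overlapped, namely Mcm9 and Nfic on chromosome 10 and Cyc1, Fdps, Plxna1, Slc28a1 and Srebf2 elsewhere. Cnot7 had a change of −1.83 under this treatment, with a limma adjusted p of 0.0929. Without chromosomes 1 and 10, 375 probe sets lay higher (1.93%) and 348 lower (1.79%). Both were settings chosen after the data were seen.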

How the data were processed

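RNA of 14 samples of 4T1 cells was measured on Affymetrix mouse gene arrays. The log2 values are as deposited by the authors, who ran RMA (background correction, quantile normalization and summarization) with oligo (versions not given in the sources used here). The number of arrays per group limits the precision. Probe sets with exactly 1 symbol (21789 of 35556) were tested. Of these, 21698 matched a RefSeq gene table (GRCm38.p6), used for names and chromosome numbers only, since the build of the array annotation is not named.

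Contrasts were fitted with limma 3.58.1 in R 4.3.3 (lmFit, eBayes) on all 14 samples in 4 groups, two-sided, with Benjamini-Hochberg adjustment over 21789 probe sets, and tested on simulated data. Hairpins and over-expression were compared in a fit of 5 groups. Errors are SD for means and SE from limma for changes.

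Named genes were Cnot7, then in each direction the 8 widest distances and 8 smallest p among non-overlapping genes with a higher group mean of at least 6, 4 per combination of directions with over-expression, and up to 4 genes per list by smallest p. Other non-overlapping list genes, hairpin calls and Dennd10 were named after their values were seen. Each gene was represented by its brightest probe set. Predicted genes, small RNAs, olfactory receptors, pseudogenes and histone genes were not named, and 1 gene that met the rule is not reported here. Members and the 38 gene lists were chosen with earlier results of these data known.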

Additional observations from a re-analysis of the deposited data

Results flagged for a closer look

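Among 213 sets of 5 knockdown values checked, 14 held a sample far from the other 4, a distance that chance gives in about 1 of 20 sets. The sample sh74 replicate 1 stood apart at Bcs1l (7.57), Bola2 (8.38), Gbp9 (9.11), Smtn (10.16) and Vps41 (8.97), and at the chromosome 13 median (0.25). The sample sh74 replicate 2 stood apart at Hsf2 (7.90), Mmp14 (10.25), Ocln (9.05) and Sparc (8.53), and at the chromosome 8 median (0.20). In sh75 replicate 1 it was Tet1 (6.22), in sh75 replicate 2 the chromosome X median (−0.13), and in sh75 replicate 3 the chromosome 5 median (0.048).

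The hairpins differed from each other, as sh74 minus sh75, at Hipk3 by 0.98 (limma adjusted p = 0.0215), at Chordc1 by −1.37 (0.000356), at Epha1 by −1.91 (0.036) and at Dnmt3a, a DNA methyltransferase gene, by −0.64 (0.0383).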

How the results depend on the processing

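Cnot7 was lower in every setting tried, and its limma adjusted p fell under 0.05 with the hairpins weighted equally in 5 groups (−1.80, 0.04998) and without sh74 replicate 2 (−2.12, 0.0451); without 1 sample in turn its change was −2.12 to −1.67. Probe sets called were 0 in most settings, 4 with 5 groups, 2 with the replicate block (Hipk3 and Tmem170b), 182 by the methods' t-test at an unadjusted p under 0.01, and 0 to 2 without 1 sample (2 without sh74 replicate 2, Mmp14 and Cnot7). Non-overlapping counts were 684 higher and 679 lower with samples of 1 title number averaged, 614 to 1446 higher and 532 to 1347 lower without 1 sample, the highest without shScramble replicate 3. Against 70 probe sets non-overlapping in both comparisons, 127 to 186 were found without 1 over-expression or vector sample. Calls were 0 to 1 for over-expression (1 without vector control replicate 3) and 14 to 53 for sh74 against sh75 (38 with all samples, 53 without sh74 replicate 2, and 14 to 19 without any other hairpin sample).

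Title numbers 4 and 5 are shared by sh75 and shScramble samples, whose deviations correlated at 0.414 and 0.481, too few pairs to treat as pairing. With the replicate block Cnot7 had −2.24 (adjusted p = 0.262), and small changes turned sign at Adgre1 (0.0044), Pecam1 (0.017), Tek (−0.035), Tgfa (−0.17), Tie1 (−0.0044) and Tob1 (0.082). Without 1 sample in turn the change of Pecam1 was −0.091 to 0.032 (above 0 without sh75 replicate 1 or shScramble replicate 1), and those of Erbb4 (−0.020 to 0.14) and Plin1 (−0.0045 to 0.082) turned below 0 without shScramble replicate 3. The median over-expression change of the interferon list was −0.41 to 0.20 without 1 sample (0.20 without vector control replicate 2), a setting chosen after the data were seen. The causes were not tested.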

Other observations

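The 13767 probe sets without exactly 1 symbol, tested apart, gave 0 limma calls and 683 at an unadjusted p under 0.05, and 223 lay higher and 226 lower without overlap. Genes of cell defense outside the interferon list included antigen presentation, where 11 of 12 changes were above 0 with a median of 0.21 and 0 were non-overlapping. Of its members Tapbp, the peptide-loading tapasin, read 9.79, 9.45, 10.13, 9.83 and 10.00 in knockdown cells against 9.29, 9.30 and 9.49 in shScramble cells. Lysosome and autophagy genes had 24 of 30 changes above 0 (median 0.14) and proteasome genes 28 of 31 below 0 (median −0.07), with 0 and 1 non-overlapping. Of all 19938 genes, 10262 had a change above 0 and 9676 below 0, and 2.09% were non-overlapping and higher and 1.86% lower.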
